A study of Rattus norvegicus with 64 samples.

Results

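A group of 193 transcripts was lower in the liver of acetaminophen-treated rats than in that of vehicle-treated rats at both collection times, out of 28420 transcripts in the deposited tables. Members were chosen by their values in CPM (each library's estimated counts relative to their sum). The ratio of the median acetaminophen CPM to the median vehicle CPM, with 0.5 added to both, had to be at most 0.67 in liver at 5 h and again at 10 h. At each time 7 or more of the 8 acetaminophen livers had to lie below the vehicle median, and the vehicle median had to reach 1 CPM. The same ratio had to stay above 0.67 in kidney at 5 h, and vehicle livers at 10 h and 5 h had to differ by a ratio between 0.57 and 1.75. The liver values of the members are therefore given as a description, and only the kidney libraries of 10 h, which the rule did not use, were tested.

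All animals were Sprague Dawley rats, an outbred laboratory strain. The treated animals received acetaminophen once at 2 g/kg, and the control animals received its vehicle, polyethylene glycol at 50% and 6 ml/kg. Liver and kidney were collected 5 h or 10 h later, which gave 8 groups of 8 libraries from 32 rats, in this order: acetaminophen and vehicle liver at 5 h, acetaminophen and vehicle liver at 10 h, and the same 4 groups in kidney. Sex and age are not given in the sources used here, and the labels do not say which liver and kidney libraries came from the same rat. Replicate numbers were given here in the order of the library numbers within each group. Equal replicate numbers in liver and kidney therefore do not mark the same rat. Acetaminophen is cleared mainly as glucuronide and sulfate conjugates made in the liver. Part of a high dose is oxidised by cytochrome P450 enzymes to a reactive quinone imine, which depletes glutathione and binds proteins, mostly in hepatocytes around the central vein. Hepatocytes also carry most of the liver's specialised metabolism and secrete plasma proteins, and the kidney forms the same reactive product to a smaller extent.

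The tables name transcripts by Ensembl identifiers, and 0 of the 28420 could be paired with a gene symbol here. No gene, pathway or sequence is therefore named, and the members are described by their level, tissue distribution and time course, with 4 identifiers shown in full. For the same reason the tissue labels could not be checked against marker genes. All 64 libraries were nearer, by correlation, to the rest of the tissue on their label than to the opposite tissue. Estimated counts totalled 21467448 to 29496773 per liver library and 18039111 to 26148119 per kidney library. Of the members, 4 formed 2 pairs with identical estimated counts in all 64 tables, so the 193 members gave 191 distinct sets of values.

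A vehicle liver, replicate 6 of 5 h (library number 30), stood apart from its group before any comparison was made. In vehicle replicate 6 at 5 h, 51.5% of all transcripts tested in liver lay below the lowest of the other 7 vehicle livers of that time, and 10.5% lay above the highest. The members were low in it: 164 of the 193 were below the vehicle median in that library, against 72 to 108 in the other 7. The median member stood at -1.07 on the log2 scale relative to the group's median, where all transcripts tested stood at -0.39. Of the members, 102 were at or below the median of the acetaminophen livers of that time in this single vehicle liver. The counts, shares and spreads at 5 h that moved most without this library are given with and without it.

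The steps of the selection show where the members came from. A total of 12149 transcripts reached 1 CPM in the vehicle livers of both times. Of these, 1031 had a ratio of at most 0.67 at 5 h, and 292 of those also had one at 10 h, while 512 met the limit at 10 h without meeting it at 5 h. The condition on single animals left 219, and that on the vehicle time course left 202. The kidney condition left 193. The 5 members nearest to the limit had a ratio of 0.667 to 0.669 at their weaker time, and the 5 nearest transcripts outside it had 0.671 to 0.675.

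In liver the median member stood at a ratio of 0.529 at 5 h, with quartiles of 0.447 and 0.593 and a lowest value of 0.109. At 10 h the median was 0.536, the quartiles 0.433 and 0.605 and the lowest value 0.10. A ratio of at most 0.5 was found for 77 members at 5 h, for 75 at 10 h and for 37 at both times. A ratio of at most 0.333 was found for 16 members at 5 h, 24 at 10 h and 7 at both, and the count at 5 h was 25 without vehicle replicate 6. No member was at or below 0.25 at both times. In bulk tissue, fewer cells of a type and less RNA per cell cannot be told apart.

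**Figure D1:**
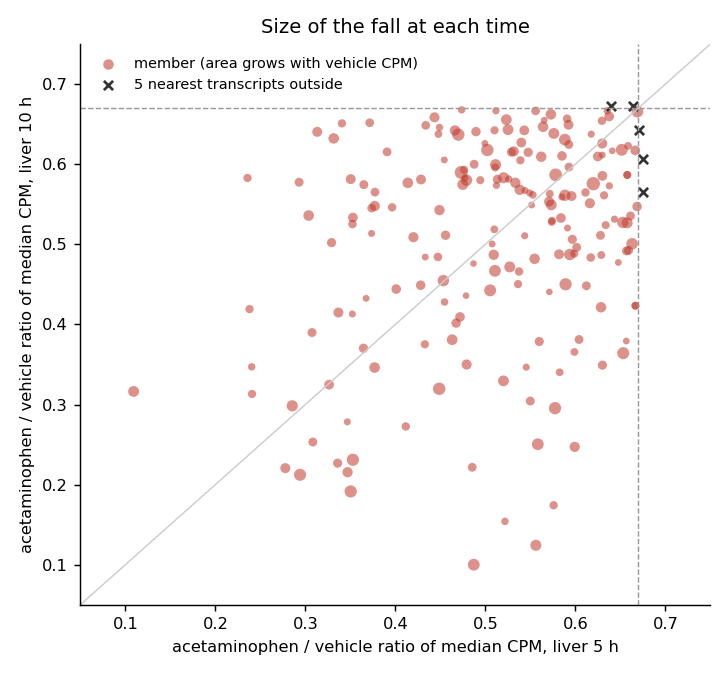
Each point is 1 of the 193 members, placed by its ratio of median CPM between acetaminophen and vehicle liver at 5 h (horizontal axis) and at 10 h (vertical axis), with an area that grows with the vehicle CPM and the equality line in grey. Crosses are the 5 nearest transcripts outside the limit of 0.67 (dashed lines), and the median member lies at 0.529 at 5 h and 0.536 at 10 h.

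The members were split into 3 sets by how their own ratios at 10 h and 5 h compared. The contrast between the sets' median ratios therefore follows from the cut. Whether members differed between the times beyond the error of their ratios was not tested. For 116 members the ratios at 10 h and 5 h were close (neither over 5/4 of the other), with medians of 0.561 at 10 h and 0.55 at 5 h. A further 39 members were lower at 10 h than at 5 h by more than that, with median ratios of 0.347 at 10 h and 0.576 at 5 h. The other 38 were closer to vehicle at 10 h by this ratio, with medians of 0.582 at 10 h and 0.375 at 5 h. The ratio of vehicle livers, 10 h over 5 h, had a median of 0.837 in the 38, 1.07 in the 39 and 0.983 in the 116. How far the split follows the vehicle livers rather than the acetaminophen livers was not tested. The median vehicle liver level was 10.9 TPM (the authors' level per transcript length and library) in the set of 116, 8.14 TPM in the 39 and 5.09 TPM in the 38.

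In the edgeR fit of all liver libraries, 127 of the 193 members were called lower at 5 h and 160 at 10 h (adjusted p under 0.05), beside 6.54% and 6.08% of all 14943 transcripts tested. These are the contrasts that chose the members and nothing is read from the counts. None was called higher, beside 7.37% of all transcripts at 5 h and 9.74% at 10 h. The median fitted log2 change of the members was -0.89 at 5 h and -0.96 at 10 h, beside 0.03 and 0.02 for all transcripts tested. The standard error of a member's log2 change had a median of 0.25 at each time and reached 1.04 at 5 h and 1.06 at 10 h. Both times gave a call for 115 members, 5 h alone for 12, 10 h alone for 45 and neither time for 21. The 115 make up 59.6% of the members and 41.2% of the 279 transcripts called lower at both times, which are 1.87% of those tested. Without vehicle replicate 6, 145 members were called at 5 h and 131 at both times, beside 6.9% and 2.24% of all transcripts, and the median log2 change at 5 h was -0.945. On the log2 scale of deposited TPM with 1 added, the 5 h comparison called 2615 of all transcripts lower and 361 higher, and with library totals alone 1250 lower and 575 higher, against 977 lower and 1102 higher here.

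The acetaminophen and vehicle livers overlapped for most members. At 5 h all 8 acetaminophen livers lay below the lowest vehicle liver for 27 members, where this held for 1.16% of all transcripts tested, and at 10 h for 76 members, beside 1.75%. Both times met this for 21 members, beside 0.234% of all. Without vehicle replicate 6 the count at 5 h was 82, beside 3.09% of all, and the count at both times was 52, beside 0.549% of all. Leaving out any other single liver library moved neither count by more than 1.5 times. All 8 acetaminophen livers lay below the vehicle median for 161 members at 5 h, 165 at 10 h and 144 at both. The rule itself asked for 7 or more of the 8 at each time. No share over all transcripts is given here, and nothing is read from these counts.

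**Figure D2:**
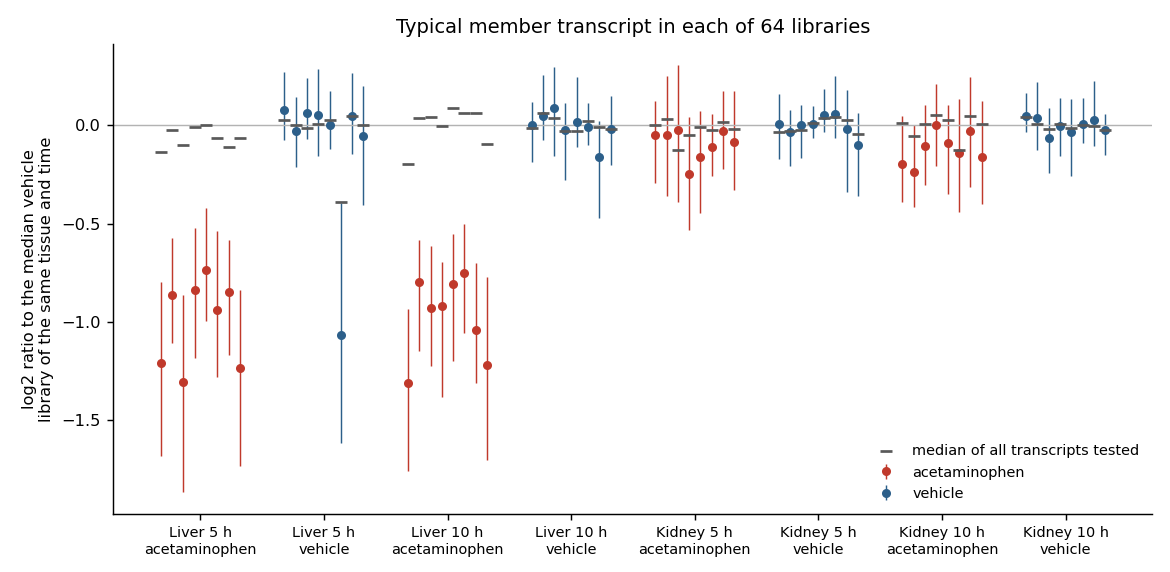
Each point is the median over members of a library's log2 ratio to the median vehicle CPM of the same tissue and time, with bars from the lower to the upper quartile over 193 members in liver and 169 in kidney, and grey dashes give the median over all transcripts tested. All 16 acetaminophen livers sit between -1.31 and -0.73, where 1 vehicle liver of 5 h, at -1.07, also lies.

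The choice of members fixed low values in most acetaminophen livers, and the size of the difference is given here library by library. The median member's log2 ratio to vehicle ran from -1.30 to -0.73 over the 8 acetaminophen livers at 5 h, around a middle value of -0.90. In the vehicle livers of 5 h it ran from -1.07 to 0.08, and from -0.05 to 0.08 without replicate 6. At 10 h it ran from -1.31 to -0.75 in acetaminophen livers and from -0.16 to 0.09 in vehicle livers. The acetaminophen livers furthest from vehicle were replicates 3, 8 and 1 at 5 h, at -1.30, -1.23 and -1.21, and replicates 1 and 8 at 10 h, at -1.31 and -1.22. At 10 h those 2 libraries also had the lowest medians over all transcripts tested, -0.19 and -0.09, where the other 6 lay between -0.0016 and 0.09. The part of this general shift in the members' values was not tested.

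The members held 0.871% ± 0.121 of all estimated counts in acetaminophen livers at 5 h and 1.62% ± 0.290 in vehicle livers (SD, n = 8 each). Without vehicle replicate 6, which held 0.998%, the vehicle livers held 1.71% ± 0.154 (SD, n = 7). At 10 h the share was 0.867% ± 0.112 in acetaminophen livers and 1.76% ± 0.102 in vehicle livers (SD, n = 8 each). The 5 most abundant members held 32.8% of the members' counts in vehicle liver. Without those 5 the shares were 0.585% ± 0.0553 and 1.12% ± 0.186 at 5 h and 0.523% ± 0.0833 and 1.15% ± 0.0788 at 10 h, in acetaminophen and then in vehicle livers (SD, n = 8 each). The vehicle value at 5 h was 1.18% ± 0.0722 without replicate 6 (SD, n = 7).

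The spread between animals of a group was larger for these transcripts than over all transcripts tested in each of the 4 liver groups, and also in kidney. The median SD of log2(CPM + 0.5) over members was 0.44 in acetaminophen and 0.56 in vehicle livers at 5 h, and 0.34 in those vehicle livers without replicate 6. At 10 h it was 0.41 in acetaminophen and 0.31 in vehicle livers. Over all transcripts tested the corresponding values were 0.33, 0.35 (0.25 without replicate 6), 0.33 and 0.23. In kidney the members' values were 0.294 with acetaminophen and 0.297 with vehicle at 5 h, beside 0.271 and 0.232 over all. At 10 h they were 0.264 and 0.253, beside 0.249 and 0.206. The mean Pearson correlation of a pair of members over 8 livers was 0.18 at 5 h and 0.17 at 10 h with acetaminophen, beside 0.02 and 0.08 for pairs of all transcripts. With vehicle it was 0.33 at 5 h, beside 0.13 for pairs of all transcripts, and 0.03 without replicate 6, beside 0.0099. At 10 h it was 0.05 with vehicle, beside 0.04 for pairs of all transcripts. These are descriptions over 7 or 8 livers, and each pair shares its libraries and their depth. The rule chose the members on the same livers, and whether it favoured transcripts with a larger spread was not tested.

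Above the floor of 1 CPM, members were spread over a wide range of levels. In vehicle liver their mean level ran from 0.177 to 1700 TPM, with a median of 8.55 TPM, beside 5.55 TPM for the 12149 transcripts that reached the floor of 1 CPM. A level of 100 TPM or more was held by 21 members, or 10.9%, beside 6.62% of the transcripts at the floor, and 70 members, or 36.3%, stood between 10 and 100 TPM, beside 28.5%. The 84 members between 1 and 10 TPM and the 18 below 1 TPM made up 43.5% and 9.33%, beside 54.6% and 10.3%. Ratios were close across these levels at 5 h, with medians of 0.511 for the most abundant set, then 0.524, 0.541 and 0.533. At 10 h the most abundant set had the lowest median, 0.45, and the other 3 had 0.539, 0.546 and 0.546. The precision differed. At 5 h the median standard error of the log2 change was 0.18 in the most abundant set and 0.38 in the scarcest. Calls at both times were made for 16 of 21 members in the most abundant set and 3 of 18 in the scarcest (16 and 6 without vehicle replicate 6). The shares called among all transcripts of these levels are not given here. Nothing is read from these calls, since the rule used the same contrasts. Member transcripts were 180 to 12411 bases long, with a median of 2276 bases, and 15% of them were 1000 bases or shorter, beside 14.1% of the transcripts at the floor.

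By tissue, the members leaned towards transcripts with more expression in liver than in kidney. The mean vehicle liver TPM was at least 16 times that of vehicle kidney, with 0.01 added to both, for 32 members, or 16.6%, beside 3.45% of the transcripts at the floor. For 53 members, or 27.5%, it was 2 to 16 times as high, beside 5.2%. A further 63 members, or 32.6%, were within 2 times in either direction, beside 32.9%. The remaining 45 members, or 23.3%, had less than 0.5 times as much in liver, beside 58.4%. These shares describe the list and were not tested. The median ratio of liver to kidney was 1.42 for members and 0.443 for the transcripts at the floor. The most liver-enriched set had median ratios of acetaminophen to vehicle of 0.496 at 5 h and 0.446 at 10 h, and the set lowest in liver relative to kidney had 0.537 and 0.553.

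**Figure D3:**
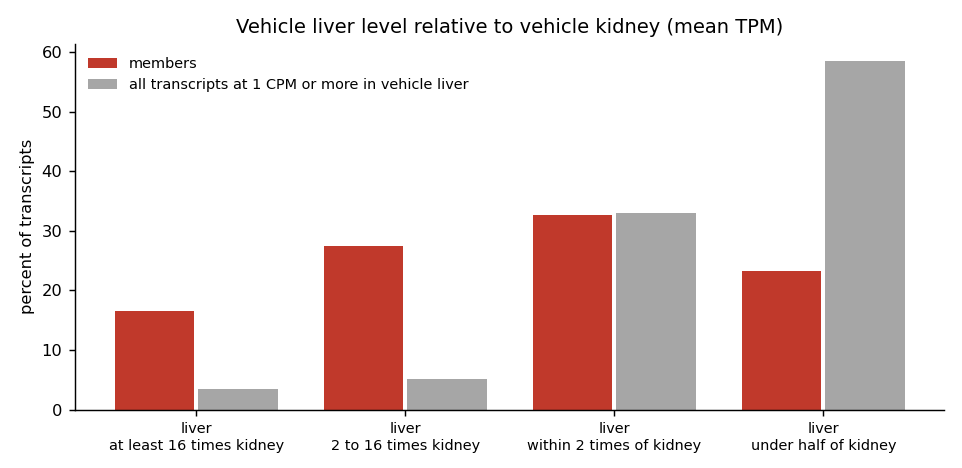
Bars give the percent of the 193 members and of the 12149 transcripts at 1 CPM or more in vehicle liver that fall into each class of vehicle liver level relative to vehicle kidney level (mean TPM of 16 vehicle libraries of each tissue). Members stand at 16.6% and 27.5% in the classes higher in liver, beside 3.45% and 5.2%.

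Whether the members also changed in kidney at 10 h was tested on libraries that took no part in their choice. Those kidneys came from the same rats as the livers of 10 h that helped to choose the members. The test is therefore not independent of the choice. Of the 193 members, 169 passed the filter on low counts in kidney, and of the 24 that did not, 20 were at least 16 times higher in vehicle liver. In kidney at 10 h, 7 of the 169 fell and 2 rose (edgeR adjusted p under 0.05), which is 4.14% and 1.18% of the members tested, beside 0.648% and 0.694% of all 17284 transcripts tested. The median log2 change of the members was -0.13 with a median standard error of 0.16, beside 0.00 for all transcripts. The ratio of medians was below 1 for 107 of the 169 members, or 63.3%, beside 47.5% of all transcripts, and at most 0.67 for 2.96% of the members, beside 2.59%. On the deposited TPM, 10 members fell and 1 rose, with all calls at 155 lower and 56 higher, against 112 lower and 120 higher here. DESeq2 called 13 lower and 3 higher, beside 1.27% and 1.2% of all transcripts. The count lower was 4 without acetaminophen replicate 1, 3, 7 or 8 or vehicle replicate 6, beside 0.304% to 0.379% of all. It was 11 without acetaminophen replicate 2, beside 0.776%.

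The 7 members that fell in kidney at 10 h did so by log2 changes of -1.15 to -0.33 (edgeR adjusted p from 0.00848 to 0.0418). Their vehicle levels in kidney ran from 8.38 to 3664 TPM, and 6 of them belonged to the 45 members with less than 0.5 times as much in vehicle liver as in vehicle kidney. All 8 acetaminophen kidneys lay below the lowest vehicle kidney for 4 of the 169 members tested, each of them among the 7, beside 0.272% of all transcripts tested. The same 7 had fitted log2 changes of -1.82 to -0.62 in liver at 10 h. In kidney at 5 h, 2 of them were also called lower. The most abundant of the 7 held 0.36% ± 0.0353 of the counts of acetaminophen kidneys and 0.545% ± 0.0694 of those of vehicle kidneys at 10 h (SD, n = 8 each). With it, the members held 1.08% ± 0.0656 and 1.38% ± 0.115 in acetaminophen and vehicle kidneys. Without it they held 0.724% ± 0.0519 in acetaminophen kidneys and 0.835% ± 0.0663 in vehicle kidneys (SD, n = 8 each). The ranges without it were 0.668% to 0.835% and 0.751% to 0.956%, so they overlapped.

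**Figure D4:**
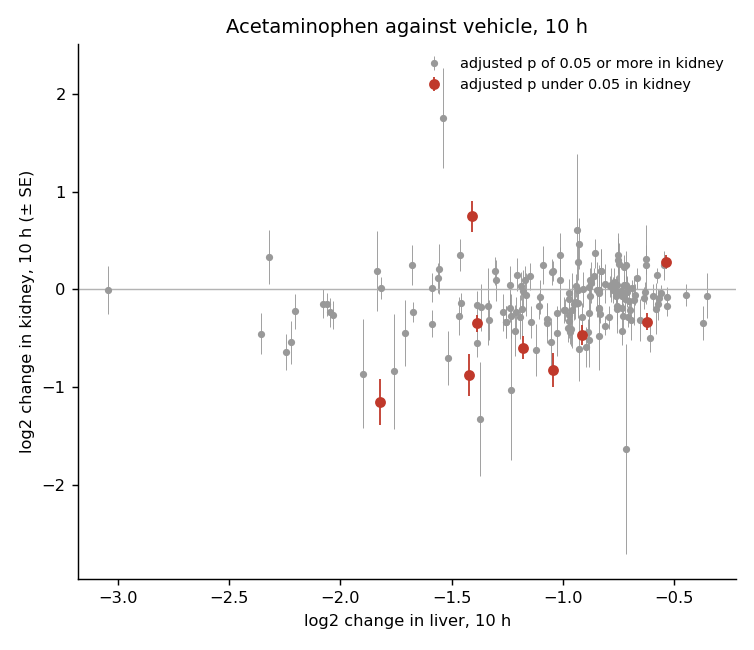
Each point is 1 of the 169 members tested in kidney, placed by its fitted log2 change between acetaminophen and vehicle at 10 h in liver (horizontal axis, the contrast that helped to choose it) and in kidney (vertical axis, with bars of ± 1 SE). The 9 coloured points passed the kidney test, 7 of them below 0 and 2 above.

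Across the 169 members the log2 changes in liver and in kidney at 10 h had a Spearman correlation of 0.207, beside 0.243 over the 14432 transcripts tested in both tissues. The points of each tissue share their libraries, both tissues came from the same rats, and transcripts are not independent replicates. At 5 h, where the rule kept the kidney ratio above 0.67, the correlation was 0.0598 for members and 0.225 over all transcripts. In that comparison 6 members were called lower and 2 higher, beside 2.29% and 2.79% of all transcripts, and the median log2 change of the members was -0.07. With TPM the calls over all transcripts stood at 394 lower and 215 higher, against 395 lower and 482 higher here. Nothing is read from these values, since the rule used them.

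The rule also used the vehicle kidneys of 5 h and bounded the vehicle livers' time course, so the vehicle values are a description. In vehicle kidney 0 of 169 members differed between 10 h and 5 h by edgeR, and 0 by DESeq2 and limma, while 14 had an unadjusted p under 0.05, beside 5.8% of all transcripts tested. Over all transcripts edgeR called 0.0289% lower and 0.0116% higher, so the members' count is near that background. The ratio of the vehicle kidney medians, 10 h over 5 h, had a median of 1.02 over members. In vehicle liver, where the rule bounded the difference, 2 members were called lower and 1 higher, beside 1.94% and 1.32% of all transcripts. The median ratio there was 0.979, with quartiles of 0.831 and 1.12.

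A pair of members was shown in full by a rule on the size of the fall: at least 5 CPM in vehicle liver, no overlap between the groups at either time, and the lowest ratio at the weaker time, where 19 members met the first conditions. ENSRNOT00000061054, a transcript of 2050 bases, had 3.49, 13.3 and 20.5 CPM in acetaminophen livers at 5 h, against 23, 33.9 and 45.9 CPM in vehicle livers (lowest, median and highest of 8). At 10 h it had 6.85, 9.45 and 16.4 CPM in acetaminophen livers and 17.9, 21.9 and 32 CPM in vehicle livers. Every acetaminophen liver was below every vehicle liver at both times, vehicle replicate 6 included, because the rule for showing a transcript asked for this. Per length it was more abundant in kidney than in liver, at 23.8 TPM in vehicle kidney and 13.1 TPM in vehicle liver. In kidney at 10 h it had 26.2, 43.1 and 48.9 CPM with acetaminophen and 30.7, 44.5 and 65.3 CPM with vehicle. The groups overlapped, and the log2 change of -0.17 ± 0.13 did not pass the test (SE, edgeR adjusted p = 0.651).

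ENSRNOT00000059897, of 1977 bases, was abundant in liver and nearly absent from kidney, at 306 TPM in vehicle liver and 0.27 TPM in vehicle kidney. It had 219, 285 and 389 CPM in acetaminophen livers at 5 h, against 420, 635 and 783 CPM in vehicle livers. At 10 h it had 91.7, 219 and 272 CPM in acetaminophen livers, against 492, 688 and 785 CPM in vehicle livers. The fitted log2 changes were -0.998 ± 0.179 at 5 h and -1.76 ± 0.183 at 10 h (SE), so the gap between the groups was wider at 10 h. At 10 h the acetaminophen kidneys held 0 to 0.461 CPM and the vehicle kidneys 0.339 to 0.953 CPM (edgeR adjusted p = 0.609). Its estimated counts were not whole numbers in all tables, so part of its reads also fitted other transcripts and were divided by the authors' counting. Of all members, 57% had whole estimated counts in every table, beside 58.5% of the transcripts at the floor.

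**Figure D5:**
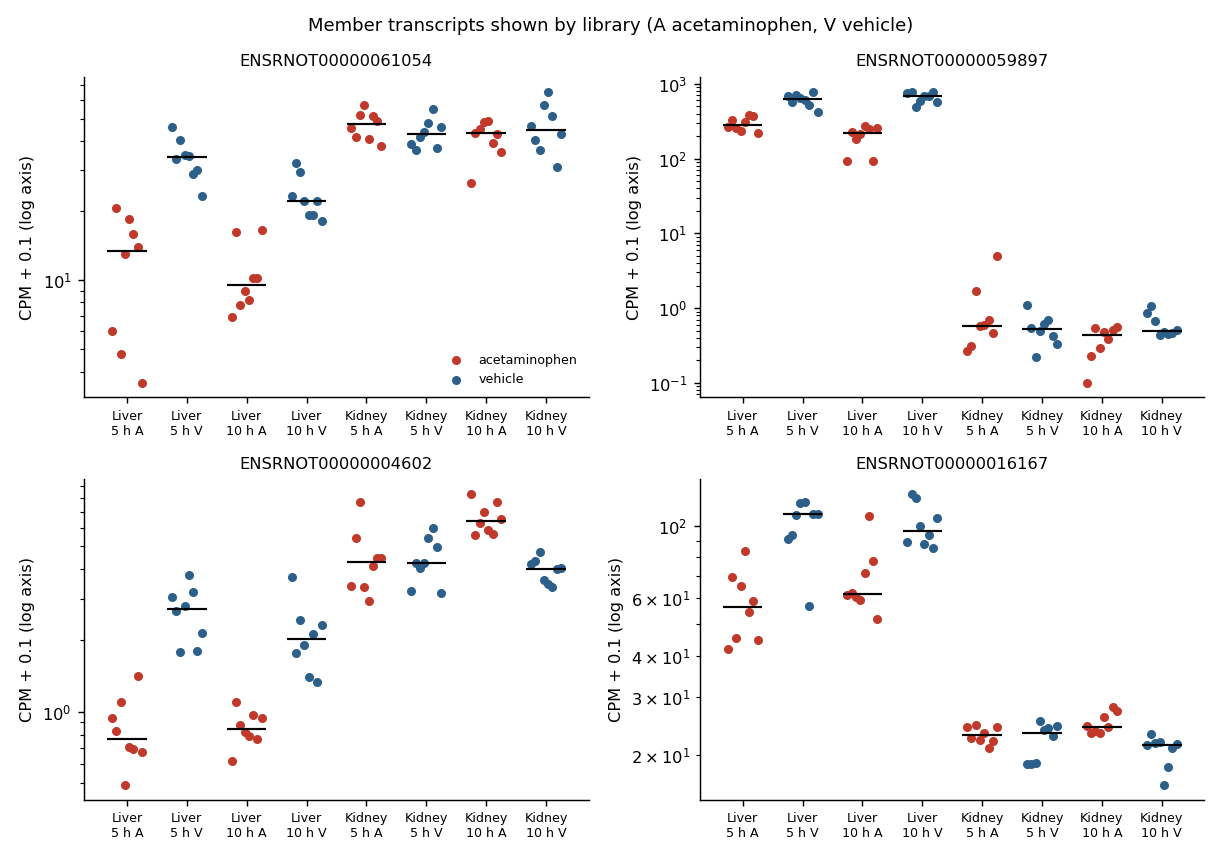
Points are the CPM, with 0.1 added, of each of 8 libraries per group on a log axis for 4 members, with acetaminophen (A) left of vehicle (V) and black lines at the group medians. The upper pair is separated between the groups in liver at both times, and the lower pair is higher with acetaminophen in kidney at 10 h.

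The 2 members that rose in kidney at 10 h were low in acetaminophen liver by the choice of members, and they are named because of this result, after their values were seen. ENSRNOT00000004602, of 2682 bases, had 5.47, 6.31 and 8.22 CPM in acetaminophen kidneys at 10 h, against 3.27, 3.92 and 4.62 CPM in vehicle kidneys. No acetaminophen kidney overlapped the vehicle kidneys, and the log2 change was 0.75 ± 0.16 (SE, edgeR adjusted p = 0.0129). In liver at 10 h the same transcript had 0.518, 0.745 and 0.993 CPM with acetaminophen and 1.23, 1.93 and 3.61 CPM with vehicle. At 5 h it had 0.389, 0.669 and 1.31 CPM in acetaminophen livers and 1.68, 2.63 and 3.68 CPM in vehicle livers, so the groups were separate in liver at both times, with the opposite direction from kidney at 10 h. Its kidney values at 5 h overlapped, at 2.82, 4.19 and 7.59 CPM with acetaminophen and 3.09, 4.15 and 5.85 CPM with vehicle. The rise in kidney at 10 h passed the test under all 8 other settings and without each of the 16 kidney libraries compared.

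ENSRNOT00000016167, of 5161 bases, had 23.3, 24.3 and 27.8 CPM in acetaminophen kidneys at 10 h, against 16.1, 21.4 and 23.1 CPM in vehicle kidneys. The groups did not overlap, and the log2 change was 0.28 ± 0.07 (SE, edgeR adjusted p = 0.0389). This call was lost in 3 of 8 other settings, with limma on log2(TPM + 1) and log2(TPM + 0.1) (adjusted p = 0.147 and 0.154) and with edgeR without a filter (adjusted p = 0.0663). It was also lost without vehicle replicate 1, 5, 6 or 7 or acetaminophen replicate 1, 5, 6, 7 or 8, 1 library at a time, with log2 changes of 0.24 to 0.28 and edgeR adjusted p-values of 0.055 to 0.102. In liver at 5 h it had 42.1, 56.5 and 83.8 CPM with acetaminophen and 56.9, 108 and 118 CPM with vehicle. The 56.9 CPM belong to vehicle replicate 6. The next vehicle liver had 91.2 CPM, above all acetaminophen livers. At 10 h the groups overlapped in liver, at 51.8, 61.8 and 107 CPM with acetaminophen and 85.6, 96.3 and 125 CPM with vehicle.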

How the data were processed

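RNA of 64 liver and kidney samples was made into stranded poly-A libraries and read as 75-base single ends, per the labels' protocols, whose extraction text speaks of culture cells although the tissue labels name liver and kidney. For each library the authors deposited each transcript's estimated count and its TPM. The submitters' processing notes name kallisto 0.42.4 and the build Rnor_6.0. Of the estimated counts, 26.6% are not whole (tolerance 1e-06). Here they were rounded, and edgeR 4.0.16 was fitted in R 4.3.3 (filterByExpr, TMM, glmQLFit, glmQLFTest, two-sided), 32 libraries of a tissue together in 4 groups, with Benjamini-Hochberg adjustment over all transcripts tested. Calls have an adjusted p under 0.05. An SE was taken as the size of a log2 change over the root of its F statistic. Members, classes and tests were chosen with earlier results of these data known. The planned gene lists were not used, since no identifier could be paired. The planned naming rule for unpaired identifiers gave 2 transcripts. Alternatives were DESeq2 1.42.0, limma 3.58.1 on TPM, other normalizations, all transcripts unfiltered, fewer libraries, other settings of the rule, and each library left out. The fits were tested on simulated data. Within groups the most similar pair of libraries differed beyond sampling noise (chi-square per degree of freedom 14.1).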

Additional observations from a re-analysis of the deposited data

Results flagged for a closer look

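A total of 48 groups of 8 values were searched for a library far from the others, and 5 were found, where chance gives about 1 in 20. In vehicle livers at 5 h the median member of replicate 6 stood at -1.07 on the log2 scale, where the next lowest of the 8 stood at -0.05. ENSRNOT00000016167 was at 56.9 CPM in the same library, where the next was at 91.2 CPM. In vehicle livers at 10 h the median member of replicate 7 stood at -0.162, where the next was at -0.02. ENSRNOT00000004602 was at 3.61 CPM in vehicle liver replicate 1 at 10 h, where the next was at 2.35 CPM. ENSRNOT00000059897, which is abundant in liver, was at 4.88 CPM in acetaminophen kidney replicate 8 at 5 h, where the next was at 1.6 CPM.

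For ENSRNOT00000004602 all 8 acetaminophen kidneys at 10 h lay above the vehicle median, with a log2 change of 0.75, and all 8 acetaminophen livers lay below theirs. The difference between the tissues was not tested, since the liver values chose this transcript.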

How the results depend on the processing

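The rule found 114 members with a limit of 0.6 and 375 with 0.75, and 143 to 217 under the other 6 settings, of which deposited TPM gave 175 members, 142 of them shared with the 193. Without a liver library it found 172 to 217. Members called lower in liver ran from 106 to 160 at 5 h and from 153 to 168 at 10 h over 8 settings. Without 1 library they ran from 115 to 145 and from 150 to 161. Of all transcripts, 4.17% to 17.5% were called lower at 5 h and 3.59% to 8.16% at 10 h over the settings. Without 1 library these shares were 5.19% to 8.02% and 5.09% to 6.59%. The 160 came on log2(TPM + 1), at 17.5% of all, and the 106 without the libraries numbered 65 to 68, at 4.53%. The count without overlap was 27 to 82 at 5 h, 76 to 88 at 10 h and 21 to 52 at both times without 1 liver library, an alternative chosen after seeing the data. The 82 and 52 came without vehicle replicate 6, beside 3.09% and 0.549% of all transcripts. On log2(TPM + 1) the median log2 change over all transcripts shifted by -0.13 in liver at 5 h. In kidney at 10 h, 13 members fell by DESeq2 (219 lower and 207 higher over all transcripts, against 112 and 120). Without 1 library 4 to 11 fell, beside 0.304% to 1.01% of all transcripts. The number that rose was 3 by DESeq2, 1 without a filter and on TPM with either constant, and 1 to 2 without 1 library. In kidney at 5 h, 10 were called lower with library totals alone and 2 on the 16 libraries compared, beside 2.29% and 0.7% of all transcripts. Without 1 library 3 to 11 were called lower, beside 1.11% to 3.34% of all. Called higher were 5 by DESeq2 and 1 with library totals, without a filter, on TPM, on the 16 libraries and without the libraries numbered 65 to 68, and 1 to 3 without 1 library. The vehicle kidney count was 0 in each. The cause of these moves was not tested. No paired analysis was possible because the labels give no replicate numbers and do not link the libraries of a rat. Scarce members limit the precision, since 18 were below 1 TPM in vehicle liver.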
